A study of Mus musculus with 18 samples.

Results

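The genes described here are 10 mouse genes of fatty acid handling and capillary identity in fat and muscle endothelium, namely Cd36, Fabp4, Fabp5, Lpl, Gpihbp1, Pparg, Meox2, Tcf15, Car4 and Aqp1. They were taken by name, with earlier results of these data known. All 10 were found among 55401 Ensembl genes of the endothelial libraries and among 22612 lines, named by gene symbol, of the tumour cell libraries. RNA was sequenced from 18 libraries in 6 groups of 3. BEC normal held blood vessel endothelial cells of the mammary fat pad of mice without tumours, and BEC tumour held blood vessel endothelial cells of primary EO771 tumours. HEC normal held high endothelial cells of lymph nodes of mice without tumours, and HEC tumour held high endothelial cells sorted from tissue labelled as lymph node metastases. The mice were wild-type C57BL/6 females of 5 to 6 weeks at purchase. Endothelial cells were sorted as CD45- and strongly CD31+, then divided by PNAd, the sugar ligand that marks high endothelium, into HECs, which carry it, and BECs, which do not. The remaining groups were EO771 mouse breast cancer cells in culture, exposed for 48 h to 12-HETE at 100 nM or to its vehicle, saline with 2% DMSO. 12-HETE is a lipid made from arachidonic acid by a lipoxygenase.

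Fat and muscle take up fatty acids through their capillaries. Lipoprotein lipase, made by the parenchyma and carried across to the vessel lumen by GPIHBP1, cuts fatty acids from circulating triglyceride, CD36 at the cell surface helps to take them up, and the small carriers FABP4 and FABP5 bind them in the cytosol. The nuclear receptor PPARG drives the transcription of several of these genes in endothelium and fat, MEOX2 and TCF15 are known as a pair of transcription factors of heart and muscle capillaries that act on Cd36 and Lpl, and the surface carbonic anhydrase CAR4 and the water channel AQP1 mark capillary endothelium. High endothelial venules are the specialised vessels through which lymphocytes enter lymph nodes.

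Total deposited values ran from 56.4 to 79.4 M per endothelial library and from 17.3 to 18.6 M per EO771 library. Low endothelial values rise in steps of about 3.74 deposited units, so 1 unit is not 1 fragment. Dividing by this step gave the fragment numbers quoted below, and 3 fragments in a library, 11.2 units, was taken as the floor that a value of 0 allows (counting error only). Levels are counts normalised by DESeq2 size factors. The general endothelial markers, 10 genes such as Pecam1 and Cdh5, summed to between 2535 and 3364 CPM in the endothelial libraries. Not all 10 were alike, since the log2 fold change of Cldn5 against BEC normal was -9.54 in BEC tumour and -7.89 in HEC normal. That of Esam was -1.87 in BEC tumour. By the test described below, none of the 10 was higher than BEC normal in either group. The 5 high endothelial markers summed to at least 975 CPM in every HEC library and at most 27.6 CPM in every BEC library. That sum was carried by Glycam1, Chst4 and Fut7. Chst4 was at only 4.07 normalised counts in HEC normal replicate 2, against up to 20205 in that group, Gcnt1 overlapped between HECs and BEC normal, and Chst2 was at 0 in all HEC libraries and averaged 1431 in BEC normal. BEC tumour also differed from BEC normal in markers of other cells. The 10 myeloid markers, of which 10 of 10 were higher than in BEC normal, summed to between 1622 and 2259 CPM there against 108 to 129 CPM in BEC normal, with the pan-leukocyte marker Ptprc at 662 against 16.1 normalised counts on average. The 13 fibroblast and pericyte markers summed to between 1017 and 1056 CPM in BEC normal against 110 to 152 CPM in BEC tumour, 34.0 to 35.9 CPM in HEC normal and 19.6 to 21.1 CPM in HEC tumour, so they moved with every comparison of HECs with BECs. The 7 epithelial markers summed to between 4.14 and 7.04 CPM in BEC normal and to 16.7, 20.6 and 91.6 CPM in BEC tumour replicates 1, 2 and 3. They summed to between 27.9 and 31.2 CPM in HEC normal and between 31.2 and 34.2 CPM in HEC tumour, above BEC tumour replicates 1 and 2. Of the 10 adipocyte markers, between 6 and 8 were at 0 in each BEC normal library, and Adipoq was at 0 in all 3. Others were present, since Plin4 averaged 415 normalised counts there against 37.2 in HEC normal. The list summed to at least 4.64 CPM in every BEC library and at most 1.27 CPM in every HEC library. With tumour, BECs held Adipoq at 23.4 and Cfd at 60.1 normalised counts on average. The share of these cells in the results below was not tested. Cell class and tissue go together in this design, since BECs came from fat pad or tumour and HECs from lymph node, so they cannot be told apart. Neither batches nor sequencing dates are labelled. The labels do not say that replicates are separate mice, while the study describes the endothelial libraries as independent experiments, and the p-values measure the spread between these libraries.

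The 10 genes did not behave as 1 set. Each is compared first by how many passed the test, called here when the adjusted p of the DESeq2 Wald test was under 0.05 and the fold change was over 2. Meox2 and Car4 stayed under the mean value of 10 needed for the test, which left 8 genes tested in the endothelial libraries. In BEC tumour against BEC normal, 5 of 8 were called, Cd36 and Lpl higher and Gpihbp1, Pparg and Aqp1 lower, where 23.3% of all tested genes were called in either direction. In HEC normal against BEC normal, 7 of 8 were called against 32.2% of all genes, with Cd36, Fabp4 and Tcf15 higher and Fabp5, Lpl, Gpihbp1 and Pparg lower. HEC tumour against BEC tumour gave 5 of 8 against 21.9% of all genes, with Gpihbp1 and Aqp1 higher and Cd36, Fabp5 and Lpl lower. HEC tumour against HEC normal gave 3 of 8 against 7.8% of all genes, with Pparg higher and Cd36 and Lpl lower. Median log2 fold changes over the 8 genes were -0.32, -1.55, 0.10 and -0.38 in these 4 comparisons, where the medians over all 18511 tested genes lay between 0.00 and 0.02. These comparisons share groups, so they are not independent of each other.

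**Figure D1:**
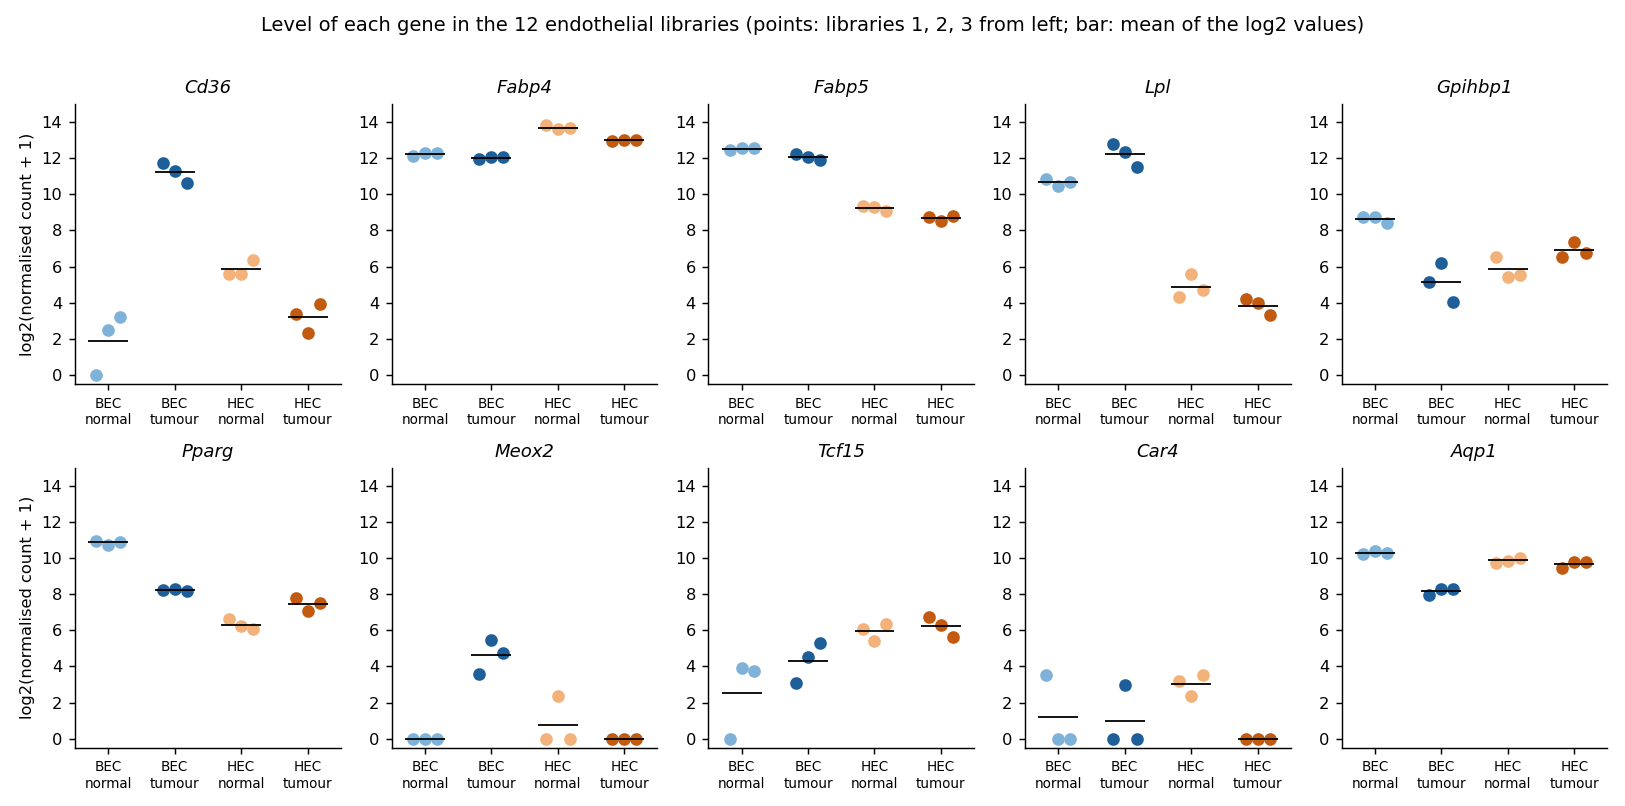
Level of each gene, as log2(normalised count + 1), in the 12 endothelial libraries, where points are libraries and bars the mean of the log2 values in each of the 4 groups. Cd36 ran from 1583 to 3434 normalised counts in BEC tumour and was at most 80.3 in each of the others, while Fabp5 and Lpl were high in both BEC groups and Fabp4 was highest in HEC normal.

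Cd36, the fatty acid translocase (GRCm38 chr5:17781690-17888801, minus strand), was nearly absent from the BECs of the fat pad and abundant in those of the tumour. Its normalised counts were 0, 4.71 and 8.13 in the 3 BEC normal libraries, each under the floor. In BEC tumour they were 3434, 2467 and 1583. Every BEC tumour library was thus far above every BEC normal library, and the order within BEC tumour was replicate 1, 2, 3 from the highest. The log2 fold change was 9.24 ± 0.58 (SE; DESeq2 adjusted p = 5.61e-56). Because BEC normal held only 3 fragments in all against 2255, the ratio itself was poorly bounded, at 655 with a 95% counting interval from 224 to 3178. Leaving out BEC normal replicate 3 or replicate 1 moved the log2 fold change to 10.22 or 8.58. In a bulk library, a gene expressed by fewer cells cannot be told apart from one with less RNA per cell, and the myeloid markers moved with Cd36. They summed to 2259, 2145 and 1622 CPM in BEC tumour replicates 1, 2 and 3, the same order as Cd36. CD36 is also a scavenger receptor of macrophages, and the part of myeloid cells in its level was not tested.

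In the lymph node, Cd36 was low. HEC normal libraries gave 47.7, 47.8 and 80.3 normalised counts and HEC tumour libraries 9.24, 3.95 and 14.4. The HEC normal libraries lay above those of BEC normal and of HEC tumour without overlap, while HEC tumour and BEC normal overlapped. Against BEC normal, Cd36 was higher in HEC normal by a log2 fold change of 3.83 ± 0.59 (adjusted p = 2.86e-10), which rested on 48 fragments against 3 and a ratio of 15.8 with a counting interval from 5.08 to 79.1. This value became 4.81 without BEC normal replicate 3 and 3.17 without replicate 1. With tumour it fell in HECs, at a log2 fold change of -2.69 ± 0.51 (adjusted p = 1.07e-06) on 48 against 7 fragments. Limma voom called neither of these, with adjusted p = 0.120 for HEC normal against BEC normal and 0.252 for HEC tumour against HEC normal. HEC tumour lay far below BEC tumour, with a value of -8.10 ± 0.50 (adjusted p = 2.40e-58). Myeloid markers were also lower in HEC tumour, at 356 to 374 CPM, than in HEC normal, at 484 to 510 CPM, and Cd68 made up most of that sum in HECs, since Adgre1, C1qa and C1qb were at or near 0 there.

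**Figure D2:**
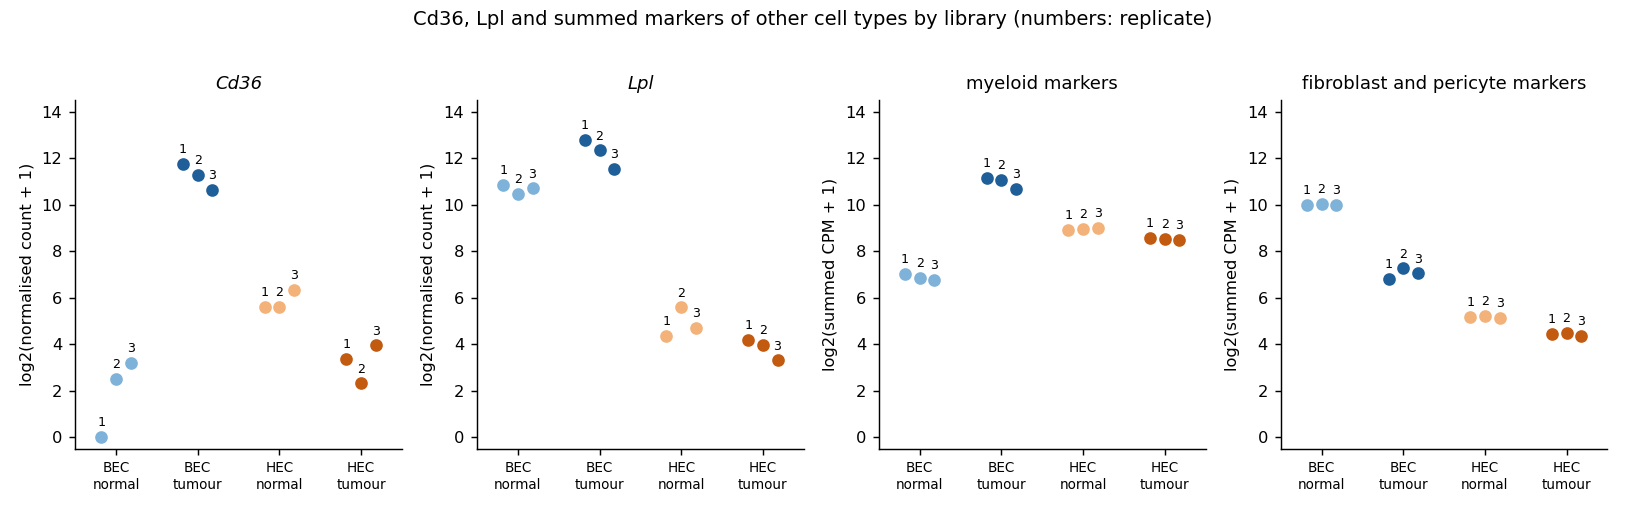
Cd36 and Lpl, as log2(normalised count + 1), beside the summed CPM of the myeloid and the fibroblast and pericyte markers, as log2(summed CPM + 1), in each endothelial library, with replicate numbers beside the points. In BEC tumour, Cd36, Lpl and the myeloid sum shared the order replicate 1, 2, 3, and the fibroblast and pericyte sum fell from at least 1017 CPM in BEC normal to at most 152 CPM.

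The promoters of Cd36 and Pparg are shown because Cd36 had the largest difference with tumour and PPARG is a known activator of it. Of the 10 genes, 5 had a promoter in the RefSeq table for GRCm38.p6, with 7 starts in all. The 250 bases before the start were searched on both strands for AGGTCA, part of the site bound by PPARG with RXR, TAATTA, a homeobox motif, the E-boxes CATATG and CAGCTG, and TATAAA. None of these words overlaps another in the lines below. Capitals mark AGGTCA, or TGACCT where it lies on the other strand, and in the second Pparg start also TTTATA, which is TATAAA on the other strand.
Cd36, chr5:17835897-17836146, minus strand: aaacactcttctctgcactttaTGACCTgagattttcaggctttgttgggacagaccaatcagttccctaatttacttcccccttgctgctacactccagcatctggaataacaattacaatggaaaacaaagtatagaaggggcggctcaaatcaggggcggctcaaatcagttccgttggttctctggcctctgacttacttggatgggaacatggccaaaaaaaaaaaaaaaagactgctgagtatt
Pparg first start, chr6:115360894-115361143, plus strand: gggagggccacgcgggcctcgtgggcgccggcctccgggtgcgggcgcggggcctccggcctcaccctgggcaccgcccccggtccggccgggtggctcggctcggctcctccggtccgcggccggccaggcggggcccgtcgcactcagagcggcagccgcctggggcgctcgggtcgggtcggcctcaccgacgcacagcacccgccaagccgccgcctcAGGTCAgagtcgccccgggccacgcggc
Pparg second start, chr6:115362099-115362348, plus strand: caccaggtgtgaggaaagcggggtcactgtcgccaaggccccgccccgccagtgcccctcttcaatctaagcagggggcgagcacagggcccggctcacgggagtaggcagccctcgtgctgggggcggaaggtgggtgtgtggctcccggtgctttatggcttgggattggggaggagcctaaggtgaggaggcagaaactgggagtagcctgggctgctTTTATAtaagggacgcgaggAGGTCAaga
AGGTCA stood in these 3 of the 7 starts, 228 to 223 bases before the Cd36 start and within 28 bases of both Pparg starts, and 14% of 32851 promoters of the same length hold it. TATAAA stood before the second Pparg start and before the Meox2 start, both times 29 to 24 bases upstream, against 12.4% of all promoters. The homeobox motif, held by 4.84% of all promoters, was not found in any of the 7 windows. The same was true of CATATG, held by 3.46%, and of the other E-box, held by 13%. GC content was 43.2% before the Cd36 start and 82.4% and 63.6% before the first 2 Pparg starts. The third Pparg start, Car4 and Aqp1 held none of the 5 words. The data count reads per gene and do not separate starts.

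Fabp4 and Fabp5, the cytosolic fatty acid carriers, lie near each other on chromosome 3 (Fabp4 at chr3:10204088-10208576, minus strand, and Fabp5 at chr3:10012548-10016607, plus strand). They were the most abundant of the 10 genes per kb of coding transcript in all 4 endothelial groups. Per kb of coding transcript, Fabp5 averaged 5954 and Fabp4 5367 normalised counts in BEC normal, and the libraries of the 2 genes did not overlap there. In HEC normal the values per kb were 14770 for Fabp4 and 611 for Fabp5. The balance between both carriers therefore differed with cell class, and within a library the ratio of Fabp4 to Fabp5 per kb ran from 0.860 to 1.22 over the 6 BEC libraries and from 20.4 to 26.4 over the 6 HEC libraries. With tumour it was 0.901, 1.08 and 1.22 in BECs against 0.860, 0.917 and 0.924 without, and those ranges overlapped.

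Fabp4 was higher in HECs. BEC normal libraries held 4415, 4953 and 5059 normalised counts and BEC tumour libraries 3978, 4247 and 4295. HEC normal libraries held 14363, 12471 and 12868 and HEC tumour libraries 7948, 8242 and 8096. No 2 groups overlapped, in the order HEC normal, HEC tumour, BEC normal, BEC tumour. The log2 difference between HECs and BECs was 1.46 ± 0.08 without tumour (DESeq2 adjusted p = 1.22e-79) and 0.96 ± 0.08 with tumour (adjusted p = 3.87e-34), and the second missed the call because its fold was under 2. With tumour, the log2 change was -0.71 ± 0.08 in HECs and -0.20 ± 0.08 in BECs, and neither was called although both adjusted p-values (5.20e-19 and 0.0172) were under the threshold.

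Fabp5 was higher in BECs. The normalised counts were 5654, 5947 and 6030 in BEC normal and 4863, 4320 and 3886 in BEC tumour. They were 641, 633 and 536 in HEC normal and 420, 363 and 437 in HEC tumour. The 4 groups did not overlap, in the order BEC normal, BEC tumour, HEC normal, HEC tumour. HECs against BECs gave a log2 fold change of -3.28 ± 0.11 without tumour (adjusted p = 8.84e-180) and -3.42 ± 0.12 with tumour (adjusted p = 2.63e-184). The differences with tumour, -0.43 ± 0.11 in BECs and -0.57 ± 0.12 in HECs, were under the fold threshold and differed from each other by -0.14 with a 95% interval from -0.46 to 0.18 (adjusted p = 0.523). Fabp5 has processed copies in the mouse genome, and 5.48% of the 50-base words of its transcripts also occur in transcripts of 5 other genes, so its count could include or lose reads of those. Lpl shared 1.4% of its words, from a repeat, and the other 8 genes none.

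Lpl and Gpihbp1, the lipase and the protein that holds it at the capillary wall, went opposite ways in tumour BECs. Lpl (chr8:68880491-68907448, plus strand) gave 1830, 1422 and 1656 normalised counts in BEC normal and 7085, 5145 and 2936 in BEC tumour. In HEC normal it gave 19.3, 46.8 and 24.8, and in HEC tumour 17.3, 14.8 and 8.85. BEC tumour was above BEC normal in every library and both were far above the HECs, whose 2 groups lay next to each other at the low end. The log2 fold change of BEC tumour against BEC normal was 1.63 ± 0.32 (adjusted p = 1.65e-06). It was as in Cd36 the highest in replicate 1 and the lowest in replicate 3, in the order of the myeloid markers, and macrophages are a known source of the lipase. EO771 cells expressed Lpl too, and the epithelial markers were higher in BEC tumour than in BEC normal, with the highest sum in replicate 3, where Lpl was lowest of the group. The part of either cell type was not tested. HECs were lower than BECs by a log2 fold change of -5.76 ± 0.35 without tumour (adjusted p = 8.19e-58) and -8.53 ± 0.40 with tumour (adjusted p = 2.77e-100). The fall in HECs with tumour, -1.15 ± 0.42 (adjusted p = 0.0223), rested on 24 against 10 fragments. Leaving out HEC normal replicate 2 gave -0.70 (adjusted p = 0.254) and leaving out HEC tumour replicate 3 gave -0.92 (adjusted p = 0.124), neither of which was called. It was also not called by edgeR (adjusted p = 0.101) or by limma voom (adjusted p = 0.755).

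Gpihbp1 (chr15:75596628-75599481, plus strand) was highest in the fat pad. BEC normal gave 428, 424 and 335 normalised counts and BEC tumour 34.3, 72.8 and 15.7. HEC normal gave 93.3, 42.7 and 45.9 and HEC tumour 92.4, 166 and 107. BEC normal lay above all other groups, HEC tumour above BEC tumour, and HEC normal overlapped both of the latter. The log2 fold change was -3.27 ± 0.51 for BEC tumour against BEC normal (adjusted p = 6.07e-10), and -3.99 without BEC tumour replicate 2. HEC normal was below BEC normal by a log2 fold change of -2.71 ± 0.50 (adjusted p = 2.38e-07). With tumour the difference between the cell classes had the other sign, 1.57 ± 0.51 for HEC tumour against BEC tumour (adjusted p = 0.00488), and 2.29 without BEC tumour replicate 2. HEC tumour against HEC normal, at 1.01 ± 0.51 (adjusted p = 0.112), was not called, but leaving out HEC normal replicate 1 gave 1.46 (adjusted p = 0.0251). The ratio of Lpl to Gpihbp1 per kb within a library summed up these shifts. It ran from 1.71 to 2.52 in BEC normal, from 36.0 to 105 in BEC tumour, from 0.105 to 0.558 in HEC normal and from 0.0420 to 0.0955 in HEC tumour. No 2 groups overlapped. Between the HEC groups the gap was small and rested on 24 Lpl fragments in HEC normal and 10 in HEC tumour, so it was poorly bounded.

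Pparg, the nuclear receptor of fat cells and capillaries (chr6:115360951-115490399, plus strand), was highest in the BECs of the fat pad. Its normalised counts were 1956, 1711 and 1919 in BEC normal and 296, 306 and 290 in BEC tumour. In HEC normal they were 97.4, 73.3 and 65.9, and in HEC tumour 220, 131 and 178. The 4 groups did not overlap. Pparg fell in BECs with tumour, at a log2 fold change of -2.65 ± 0.19 (adjusted p = 1.50e-43), and rose in HECs, at 1.16 ± 0.21 (adjusted p = 6.04e-07). Without HEC tumour replicate 1, the highest of its group, the rise was 0.97, under the fold threshold. HEC normal was below BEC normal by a log2 fold change of -4.56 ± 0.21 (adjusted p = 5.68e-108), and HEC tumour below BEC tumour by only -0.76 ± 0.20, which was not called. Cd36 rose and Pparg fell in the same 3 tumour BEC libraries, where Fabp4, also known as a target of PPARG, was at -0.20. Bulk libraries do not show whether the same cells hold these RNAs, and any part of PPARG in the levels of Cd36 and Fabp4 was not tested. The fibroblast and pericyte markers were lower and the myeloid markers higher in those libraries too, and the part of either cell type in the decreases of Pparg, Gpihbp1 and Aqp1 was not tested.

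The transcription factors Meox2 and Tcf15 were scarce. Meox2 (chr12:37108540-37179534, plus strand) was at 0 in all BEC normal and all HEC tumour libraries and gave 0, 4.07 and 0 normalised counts in HEC normal. BEC tumour gave 11.1, 43.1 and 26.2, or 25 fragments over the group. This difference was not tested. Tcf15 (chr2:152143561-152149097, plus strand) gave 0, 14.1 and 12.2 in BEC normal and 7.42, 22.0 and 37.5 in BEC tumour. HEC normal gave 66.9, 41.7 and 81.2 and HEC tumour 106, 77.0 and 48.7. Every HEC library was above every BEC library, and the groups with and without tumour overlapped within each cell class. The log2 difference between HEC normal and BEC normal was 2.87 ± 0.88 (adjusted p = 0.00210), on 51 against 6 fragments, and 2.26 without BEC normal replicate 1. HEC tumour against BEC tumour, at 1.79 ± 0.84, was just over the threshold (adjusted p = 0.0605) and was called without BEC tumour replicate 3 (2.39, adjusted p = 0.0267) and by limma voom (adjusted p = 0.0405). Tcf15 differed by 1.37 ± 0.89 between BEC tumour and BEC normal (95% interval -0.37 to 3.11, adjusted p = 0.187) and by 0.29 ± 0.83 between HEC tumour and HEC normal (95% interval -1.35 to 1.92, adjusted p = 0.842). Changes of several fold with tumour were therefore not excluded at this depth.

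Car4 and Aqp1, a surface carbonic anhydrase and a water channel of capillaries, differed widely in level. Car4 (chr11:84957786-84966044, plus strand) gave 10.6, 0 and 0 normalised counts in BEC normal and 0, 6.77 and 0 in BEC tumour. It gave 8.11, 4.07 and 10.5 in HEC normal and 0 in all 3 HEC tumour libraries. These were 3, 2, 6 and 0 fragments per group, too few for a comparison. Aqp1 (chr6:55336432-55348555, plus strand) gave 1178, 1310 and 1221 in BEC normal, 250, 310 and 307 in BEC tumour, 856, 914 and 1033 in HEC normal and 703, 874 and 871 in HEC tumour. BEC tumour was below all other groups without overlap, and the 2 HEC groups overlapped. Aqp1 was lower in BECs with tumour by a log2 fold change of -2.09 ± 0.14 (adjusted p = 3.37e-49), and HEC tumour was 2.82-fold above BEC tumour (adjusted p = 4.64e-25). HEC normal against BEC normal, at -0.40 ± 0.13, and HEC tumour against HEC normal, at -0.19 ± 0.14 with a 95% interval from -0.46 to 0.07, were not called. Red cells are another known source of Aqp1. Their 7 markers summed to at most 2.07 CPM in BEC normal and between 40.4 and 66.6 CPM in BEC tumour, and their part in the Aqp1 level was not tested.

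**Figure D3:**
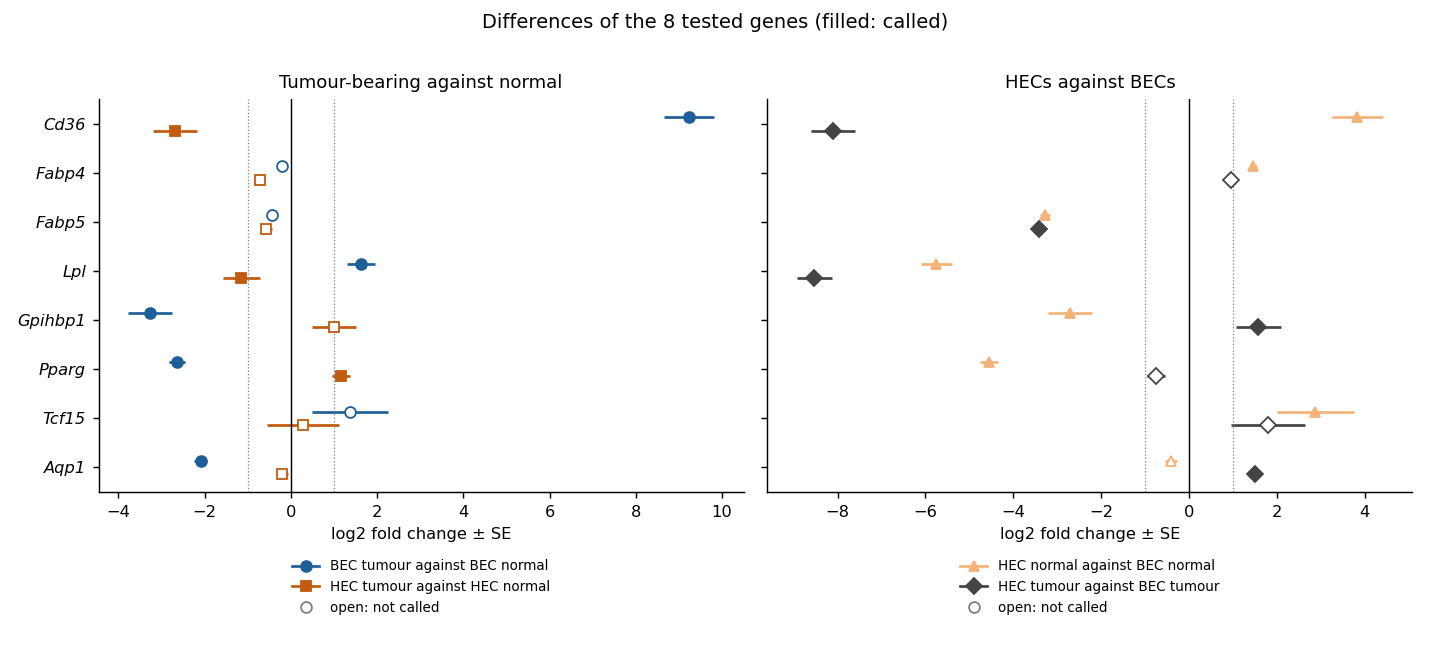
Log2 fold changes ± SE of the 8 tested genes, with tumour-bearing against normal on the left and HECs against BECs on the right, where filled symbols were called, open symbols were not, and dotted lines mark a fold of 2. Cd36 at 9.24 and Pparg at -2.65 stand on opposite sides for BECs with tumour, and on the opposite sides again for HECs with tumour, at -2.69 and 1.16.

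As a check of the name given to the set, fat pad BECs expressed 6 of the 10 genes and lacked or nearly lacked the other 4. Here Fabp4, Fabp5, Lpl, Gpihbp1, Pparg and Aqp1 had at least 314 fragments over the 3 BEC normal libraries, whereas Cd36, Meox2, Tcf15 and Car4 had 3, 0, 6 and 3. Per kb, the order in BEC normal was Fabp5, Fabp4, Pparg, Aqp1, Lpl and Gpihbp1, each without overlap with the next, and then Tcf15, Car4, Cd36 and Meox2, which overlapped. In BEC tumour, Cd36 came next after Fabp4, Fabp5 and Lpl, at 706 normalised counts per kb, and its range overlapped that of Lpl. In both HEC groups Fabp4, Fabp5 and Aqp1 led and Tcf15 followed, at 64.6 per kb in HEC normal and 78.9 in HEC tumour. Among 10 further capillary markers, 7 were testable, and in BEC tumour against BEC normal 1 was higher and 4 were lower, where 12.4% of all genes were higher and 10.8% lower. Ramp3, a receptor-modifying protein, fell by 5.76 on the log2 scale, and Kdr, the VEGF receptor, fell by 2.33. Meox1, a paralogue of Meox2, was higher by 1.37. The sum of these markers was 422 to 469 CPM in BEC normal, 92.6 to 101 CPM in BEC tumour, 109 to 116 CPM in HEC normal and 173 to 180 CPM in HEC tumour. In HEC tumour against BEC tumour 3 of 7 were higher and none was lower, where 11.2% of all genes were higher and 10.7% lower.

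The question of whether HECs and BECs answered the tumour alike was tested by the interaction, which takes the log2 fold change of BECs with tumour from that of HECs. It was called for 5 of 8 genes, against 23.3% of all genes. It was -11.93 ± 0.77 for Cd36 (adjusted p = 1.58e-52) and -2.78 ± 0.53 for Lpl (adjusted p = 1.01e-06), which rose in BECs and fell in HECs. Without BEC normal replicate 3 or replicate 1 the value for Cd36 was -12.92 or -11.27. Limma voom did not call it for Lpl (adjusted p = 0.364). It was 4.28 ± 0.72 for Gpihbp1 (adjusted p = 1.59e-08), 3.81 ± 0.29 for Pparg (adjusted p = 4.37e-39) and 1.90 ± 0.20 for Aqp1 (adjusted p = 3.64e-21), which fell in BECs and either rose or did not pass the test in HECs. Without BEC tumour replicate 2 the value for Gpihbp1 was 4.997. Fabp4, at -0.51 ± 0.11, Fabp5 and Tcf15 were not called. The normal tissues of the 2 cell classes differ, so the interaction sets the step from fat pad to tumour beside the step from one lymph node to another.

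EO771 cells expressed only part of the set. Fabp5, Lpl and Pparg passed the filter on low values, while Gpihbp1, Meox2, Tcf15 and Car4 were at 0 in all 6 libraries and Cd36, Fabp4 and Aqp1 had at most 7 counts over the 3 libraries of a group. The 0 counts allow up to 3 counts in a library. Of the 3 tested genes 1 was called, against 10.2% of all 11602 genes. Pparg gave 98.0, 83.1 and 76.8 normalised counts with vehicle and 32.9, 32.5 and 40.3 with 12-HETE. All 3 treated libraries were below all 3 controls, and the log2 fold change was -1.29 ± 0.27 (adjusted p = 1.71e-05). The value stayed between -1.39 and -1.19 when any library was left out. The 12-HETE libraries were far more alike than the vehicle libraries. Chi-squared per gene between 2 libraries was 2.39 to 2.72 with 12-HETE and 16.5 to 46.3 with vehicle. The labels do not say that these libraries are separate cultures, while the study describes independent experiments. Lpl was the highest of the set by normalised count, at 2413, 2095 and 2848 with vehicle and 2584, 2367 and 2815 with 12-HETE. The groups overlapped, with a log2 fold change of 0.08 ± 0.14 (95% interval -0.19 to 0.35, adjusted p = 0.665). Fabp5 gave 692, 691 and 668 with vehicle and 760, 813 and 731 with 12-HETE. Its groups did not overlap, but the log2 fold change of 0.17 ± 0.10 (95% interval -0.03 to 0.37) did not pass the test (adjusted p = 0.168). Epithelial markers also separated these groups, at 3240 to 4249 CPM with vehicle and 2182 to 2237 CPM with 12-HETE.

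**Figure D4:**
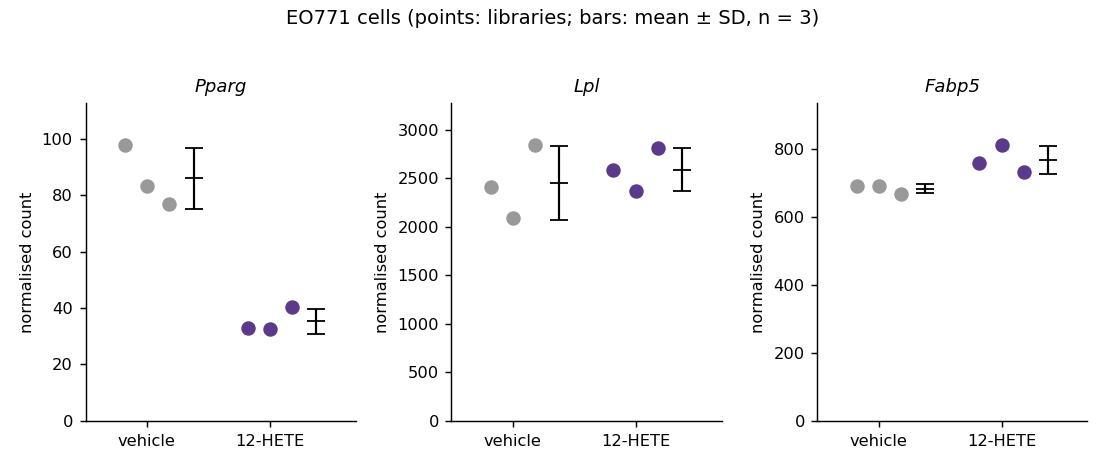
Normalised counts of Pparg, Lpl and Fabp5 in EO771 cells given vehicle or 12-HETE, with libraries as points and mean ± SD (n = 3) as bars, on axes from 0. Pparg averaged 86.0 with vehicle and 35.2 with 12-HETE, while Lpl overlapped between the groups.

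Other genes of fatty acid handling were taken as 38 genes in 5 lists chosen by role, of which 37 were tested in the endothelial libraries. In BEC tumour against BEC normal 6 were higher and 2 lower, where 12.4% of all genes were higher and 10.8% lower. In HEC normal against BEC normal 6 were higher and 8 lower, against 17.1% and 15.1% of all genes. In HEC tumour against BEC tumour 1 was higher and 11 were lower, against 11.2% and 10.7%. In HEC tumour against HEC normal 2 were higher and 2 lower, against 4.58% and 3.21%. No list was tested as a set. Median log2 fold changes were 0.29, -0.41, -0.42 and -0.16. In BEC tumour, the fatty acid transporter gene Slc27a1 averaged 6437 normalised counts against 1861 in BEC normal, a log2 fold change of 1.79 ± 0.05, and Vegfb, a growth factor known for fatty acid transport in endothelium, rose by 1.55 ± 0.08. Slc27a3 fell by 1.89 ± 0.18. Both Slc27a1 and Vegfb were also above the BEC normal level in HEC normal, by 2.64 ± 0.05 and 2.34 ± 0.08, the reverse of Lpl and Pparg. Fabp7, a further carrier, was at 0 in the HECs and was higher in BEC tumour than in BEC normal.

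Among 7 genes of lipoprotein handling, Vldlr, the receptor that binds triglyceride-rich particles, fell by 2.30 ± 0.29 on the log2 scale in BECs with tumour and rose by 2.19 ± 0.41 in HECs with tumour, the same pair of directions as Pparg. That rise started near the floor, so its size was poorly bounded. Vldlr gave 5.73 to 12.2 normalised counts in HEC normal and 32.3 to 64.2 in HEC tumour. Angptl4, a known inhibitor of the lipase and target of PPAR factors, was not called in BECs with tumour, at -0.78 and a fold under 2, and was higher in HEC tumour than in BEC tumour by 1.23 ± 0.16. Of 5 testable PPAR partners, the coactivator genes Ppargc1a and Ppargc1b were higher in BECs with tumour, by 1.82 ± 0.39 and 1.51 ± 0.19. Both were lower in HECs with tumour, Ppargc1b by a log2 fold change of -1.03 ± 0.19 and Ppargc1a at an adjusted p of 9.08e-05 in the DESeq2 Wald test, directions opposite to those of Pparg. Ppard, Rxra and Rxrb were not called in any endothelial comparison. None of 9 genes of fatty acid activation and oxidation and none of 6 of triglyceride storage and release was called in either comparison of tumour with normal. In EO771 cells, 2 of 32 tested genes were higher with 12-HETE, Slc27a3 and Lrp1, and 2 were lower, Vldlr by -1.53 ± 0.16 and the lipid droplet coat gene Plin2 by -1.34 ± 0.11, where 2.38% of all genes were higher and 7.79% lower.

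**Figure D5:**
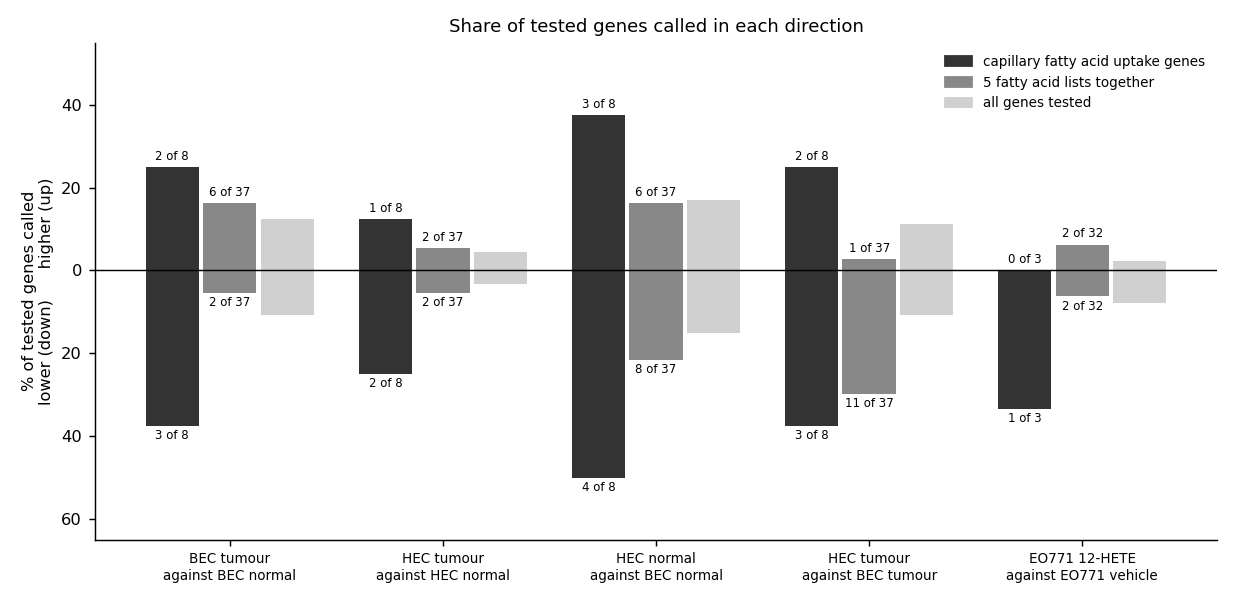
Share of tested genes called higher (up) or lower (down), in percent, for the capillary fatty acid uptake genes, the 5 lists of other fatty acid genes together and all genes tested, in each of 5 comparisons. The capillary genes had 7 of 8 called in HEC normal against BEC normal, and the other fatty acid genes had 11 of 37 lower and 1 higher in HEC tumour against BEC tumour.

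Genes with the most similar course over the 12 endothelial libraries were sought for each of the 10, by the mean absolute difference of centred log2(normalised count + 1), among genes with a mean of at least 100. The nearest to Fabp4 was N4bp3, at 0.068, and the nearest to Aqp1 was Oaf, at 0.16. Fabp5 was followed by Slc46a1 at 0.20, Pparg by Fgd3 at 0.23, Gpihbp1 by Mmp3 at 0.45 and Lpl by Npl at 0.55. Cd36 had no close neighbour, and the nearest, Rgs1, differed by 1.10 on average, with a mean of 712 in BEC tumour, 0 in BEC normal, 5.76 in HEC normal and 3.16 in HEC tumour. The myeloid marker Lyz2 was next to Cd36, at 1.11. For the scarce genes, the nearest were Arhgap30 to Meox2 at 0.62, Gm45051 to Tcf15 at 0.62 and Ifi203 to Car4 at 0.85. After Arhgap30, Meox2 was followed by the leukocyte genes Cd37 and Ncf1, both at 0.68. The part of leukocytes in the levels of Cd36 and Meox2 was not tested.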

How the data were processed

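RNA sequencing was done on 18 libraries, 12 of endothelial and 6 of EO771 cells. Per the study's methods, the authors aligned reads with STAR to the mouse genome (GRCm38) and used featureCounts to assign fragments to genes. Values deposited for the endothelial libraries were treated as estimated counts, because their low values pile up in steps of 3.675 to 3.77 (search between 3 and 5) whose origin is not given in the sources used here. Those deposited for EO771 were treated as raw counts. Labels and methods do not name the same library kit. The methods name a directional kit for EO771, and the strand setting used in counting is not given in the sources used here, but no exon of the 10 genes overlaps another gene. The tables were normalised separately, so levels were compared within a table only.

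Genes with a mean value of at least 10 entered a two-sided Wald test of DESeq2 1.42.0 (R 4.3.3) with group as the only term, in 1 fit of the 12 endothelial and 1 of the 6 EO771 libraries, with Benjamini-Hochberg adjustment over all 18511 or 11602 genes tested. Calls needed an adjusted p under 0.05 and a log2 fold change over 1 in size. With 3 libraries a group, the smallest two-sided p of an exact permutation test is 0.1. Alternatives were edgeR 4.0.16, limma 3.58.1 voom, TMM factors, other filters and calls, only the groups compared, values divided by the step, a replicate block and leaving out each library. Levels per kb used the total exon length of a gene's annotated coding transcripts, with overlapping bases counted once. Fragments are deposited values divided by 3.74, and intervals and floors cover counting error only, because fragments carried no molecular identifiers. Scripts were tested on simulated data. The 10 genes, the lists and the rules for naming genes were chosen with earlier results of these data known. The genes named are the 10, from each list up to 2 called in each direction per comparison with the largest Wald statistic (Chst2, Gcnt1, Fut7, Lyz2, Cd37, Ncf1 and list genes named as not called were added after their values were seen), and the nearest gene to each of the 10. Of the list genes that this rule names, 1 is not reported here, and not every other one is described.

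Same-numbered replicates were checked for pairing by the correlation of their deviations from the group means. In the endothelial libraries it ran from -0.030 to 0.132 and exceeded 0.1 in 1 of 18 pairs, so the numbers were not taken as pairs. In EO771 it ran from 0.113 to 0.328 and exceeded 0.1 in 3 of 3 pairs, so the numbers may pair the libraries, which the labels do not say. The EO771 values in the results come from the fit with group as the only term. Pairing by number entered only the alternative with a replicate block. Promoter sequences are those of RefSeq for GRCm38.p6.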

Additional observations from a re-analysis of the deposited data

Results flagged for a closer look

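For 5 of the 10 genes the log2 fold change with tumour was not the same in HECs as in BECs by a test of that difference, the DESeq2 interaction with Benjamini-Hochberg adjustment over all genes. The log2 change in HECs less that in BECs was -11.93 for Cd36, -2.78 for Lpl, 4.28 for Gpihbp1, 3.81 for Pparg and 1.90 for Aqp1. The size for Cd36 rests on 3 fragments in BEC normal and 7 in HEC tumour, and that for Lpl on 24 and 10 fragments in the HEC groups. That for Gpihbp1 rests on 38 fragments in BEC tumour and 49 in HEC normal. The BEC tumour libraries in which Cd36 and Lpl rose were those with 1622 to 2259 CPM of myeloid markers, whose part was not tested. Groups of 3 libraries were not searched for single outlying libraries.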

How the results depend on the processing

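Over all alternatives and all members tested, 684 values kept their side of the call, 16 became called, 17 lost their call and none changed sign while called. Among values not called, Tcf15 in HEC tumour against HEC normal turned to -0.01 without HEC tumour replicate 1, and Lpl in EO771 to -0.03 without vehicle replicate 2. The number of the 10 genes called in HEC tumour against HEC normal, 3, became 1 by limma voom, 5 by adjusted p alone and 0 by a DESeq2 test against a log2 fold change of 1 (1 gene, Cd36, at an unadjusted p under 0.05), and ran from 2 to 4 when 1 library was left out. In EO771 cells the 1 call became 0 by the DESeq2 test against a log2 fold change of 1, with 0 at an unadjusted p under 0.05, and Pparg was called by edgeR, by limma voom and with every library left out. Leaving out a library gave 5 to 6 calls in HEC tumour against BEC tumour and left the count at 5 in BEC tumour against BEC normal, 7 in HEC normal against BEC normal and 5 for the interaction. The DESeq2 test against a log2 fold change of 1 gave 4 in BEC tumour against BEC normal and 6 in HEC normal against BEC normal. It gave 4 in HEC tumour against BEC tumour and 5 for the interaction. Over all genes, adjusted p alone called 9942 genes for tumour in BECs, 6554 for tumour in HECs, 11717 and 10057 between the cell classes without and with tumour, 8643 for the interaction and 5450 in EO771, and the stricter DESeq2 test called 2078, 169, 3353, 1688, 1776 and 411 in the same order. These follow from the looser and the stricter call. For the other changes the cause was not tested.

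With the replicate number as a block, Tcf15 in HEC tumour against BEC tumour became called (2.11, adjusted p = 0.0426), which made 6 calls there, and no other call among the 10 genes changed, EO771 included. Values under about 50 fragments in a group are limited by depth. Among the 10 genes, these are Cd36 in BEC normal and HECs, Lpl in HECs, Gpihbp1 in BEC tumour and HEC normal, Tcf15, Meox2 and Car4.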
